A study of Mus musculus with 9 samples.

Results

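The Ebf2 and Clec3b fibroblasts are a subset of the fibroblasts that remained in cultures of mouse embryonic fibroblasts (MEFs) during reprogramming to induced neurons (iNs). Members were selected on the measured counts of each cell, in 3 steps. A barcode passed with at least 3000 unique molecular identifiers (UMI, counted transcripts) and at most 20% of them mitochondrial. It was a fibroblast if Col1a1, Col1a2 and Col3a1, the main fibrillar collagen chains, together gave at least 60 UMI per 10000, and the macrophage genes Tyrobp, Fcer1g, Ctss and Csf1r gave fewer than 10 per 10000. It was a member if at least 3 of the 5 marker genes Ebf2, Clec3b, Steap4, Adh1 and Col6a6 had a UMI. Of 95603 barcodes, 81999 passed and 52224 were fibroblasts. Of these fibroblasts 8063 were members, which was 15.4% of the fibroblasts and 9.83% of the cells that passed. The remaining 44161 fibroblasts are called other fibroblasts. The 5 markers were read in these same cells, so what sets members apart from other fibroblasts is given as a description with no test. Tests were kept for genotype and day, which the rule for members did not use. The members were nevertheless chosen with earlier results of these data known, and the share tests count the markers of the rule.

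Single-cell RNA-seq was performed on WT, Per1-/- and Per2-/- cultures on days 4, 7 and 10, with 1 library for each genotype and day. Per1 and Per2 encode repressors of the circadian clock, and the study asked what their loss does to iN reprogramming. The MEFs came from pooled embryos without head and heart, the alleles were Per1tm1Drw and Per2tm1Drw, and the sex of the embryos was not determined. All cultures, WT included, received lentivirus for neuronal transcription factors, Brn2 (Pou3f2) among them, and for the doxycycline-dependent activator M2rtTA, with doxycycline from day 0. The labels call every sample induced neurons, whereas most cells that passed were fibroblasts.

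EBF2 is a transcription factor best known from adipocyte precursors, where it acts with PPARG, and in adult tissues CLEC3B (tetranectin), a plasminogen-binding C-type lectin, is made by interstitial and adventitial fibroblasts. STEAP4 is a metal reductase, ADH1 is an alcohol dehydrogenase that oxidizes retinol, and COL6A6 is a chain of the microfibrillar collagen VI. Fibroblasts that express such genes line vessels and fascia and include precursors of fat cells.

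The libraries held 126625215 to 353198559 UMI, and members held a median of 18972.5 (Per1-/- day 10) to 36076 (Per1-/- day 4) UMI per cell. Because the rule counts detected genes, deeper cells enter more easily. The median depth of members was above that of other fibroblasts in all 9 libraries, most in WT day 10 with 26985 against 10061.5 UMI. The Per1-/- libraries of days 7 and 10 stood apart: no female fibroblast, by Xist and Y-linked genes, was found there, whereas the other 7 libraries held 36.0% to 74.7% female fibroblasts. They also gave 4809 of the 8063 members (59.6%), and results that rest on them are given with and without them. Transcripts of the deleted genes did not fall in the libraries labelled as deleted. Per1 in members was 9.84, 10.3 and 12.1 CPM (UMI of the gene per 1000000 UMI summed over the cells of a library) in the libraries labelled Per1-/- against 6.55, 7.51 and 8.02 CPM in WT, and Per2 was 6.53, 4.29 and 5.34 CPM in those labelled Per2-/- against 2.27, 2.10 and 2.12 CPM. Counts per gene do not show where in the gene the tags lie, so loss of a deleted part cannot be read from them. The study describes both proteins as lost in MEFs of the respective genotype by western blotting, which is not part of these data, and the genotypes below are those of the labels. The markers of members were those of fibroblasts: the 10 fibroblast markers summed to 5272 to 8627 CPM, above the other fibroblasts of each library with 3876 to 7196 CPM, and the 10 macrophage markers summed to 11.1 to 78.6 CPM, against 14406 to 20394 CPM in the 5955 cells taken as macrophages (at least 60 UMI per 10000 from the 4 macrophage genes and fewer than 60 from the 3 collagens). In the mouse genome build mm10 the 5 marker genes lie apart, except for Clec3b and Col6a6 on chromosome 9. Ebf2 lies at chr14:67233292-67430918, Clec3b at chr9:123150946-123157432, Steap4 at chr5:7960457-7982213, Adh1 at chr3:138260991-138290698 and Col6a6 at chr9:105687809-105828160.

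In WT members Ebf2 was 81.0, 69.9 and 107 CPM on days 4, 7 and 10, in Per1-/- members 75.3, 137 and 192 CPM, and in Per2-/- members 101, 82.0 and 98.7 CPM. Other fibroblasts held 9.39 to 52.0 CPM, so the groups did not overlap, as the rule itself requires of most cells. Clec3b was 45.0, 141 and 169 CPM in WT members, 39.3, 175 and 337 CPM in Per1-/- members and 55.4, 116 and 213 CPM in Per2-/- members. Its lowest 3 libraries were those of day 4 and its highest was Per1-/- day 10. Among other fibroblasts Clec3b reached 104 CPM in Per1-/- day 10, more than in members of any day 4 library. Steap4 ranged from 23.0 (Per2-/- day 7) to 89.4 CPM (Per1-/- day 10) in members and from 2.19 to 12.5 CPM in other fibroblasts. Adh1 ranged from 18.4 (Per1-/- day 4) to 93.2 CPM (Per1-/- day 10), against 3.18 to 13.2 CPM. Col6a6 ranged from 53.7 (WT day 10) to 152 CPM (Per1-/- day 10), against 8.20 to 40.5 CPM. All 5 genes were highest in the members of Per1-/- day 10. Macrophages, which should lack these genes, held at most 2.88 CPM of any of them, and 3 of 5955 macrophages, all in Per1-/- day 10, had 3 or more of the markers.

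Members differed in how many markers they held. Of the fibroblasts, 21795 had no marker, 14811 had 1, 7555 had 2, 4166 had 3, 2580 had 4 and 1317 had all 5. Thus 51.7% of all members sat at the threshold of 3 markers and 16.3% carried all 5, but libraries differed in this. In Per1-/- day 10, 1364 of 3588 members had 3 markers and 901 all 5. In WT day 10 these were 316 and 49 of 509 members, and in WT day 4 151 and 6 of 209. The tests of genotype and day within members did not adjust for the number of markers. The most frequent combinations after all 5 were Ebf2, Clec3b and Col6a6 in 971 members (12%) and Ebf2, Clec3b and Steap4 in 792 members (9.82%). Cells just inside the threshold, with 3 markers, exceeded cells just outside it, with 2, by a median log2 ratio over libraries of 0.75 for Ebf2, 0.55 for Clec3b, 1.03 for Steap4, 0.75 for Adh1 and 0.51 for Col6a6. The rule itself raises these 5 genes at that step. For 4 genes picked outside the rule the same step was 0.78 for Lpl, 0.52 for Dlk1, 0.54 for Pparg and −2.10 for Ptgds. Between all members and other fibroblasts their median log2 ratios were 2.01, 1.46, 1.39 and −3.0.

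The share of fibroblasts that were members grew with the day and was far higher in Per1-/- days 7 and 10 than elsewhere. To compare libraries of unequal depth, each fibroblast was thinned to 10000 UMI, which left out 45.3% of fibroblasts in WT day 10 and 0.545% to 4.30% in the other libraries. In WT the thinned share was 0.983% on day 4 (95% Clopper-Pearson interval 0.723% to 1.31%), 3.46% on day 7 (3.0% to 3.96%) and 7.62% on day 10 (6.64% to 8.68%). In Per1-/- it was 0.832% (0.625% to 1.08%), 17.8% (16.6% to 19.1%) and 46.1% (44.8% to 47.4%). In Per2-/- it was 0.773% (0.547% to 1.06%), 2.62% (2.27% to 3.01%) and 5.24% (4.75% to 5.78%). These intervals cover counting error only. Without thinning the shares were 4.32%, 9.86% and 10.3% in WT, 3.96%, 32.9% and 59.5% in Per1-/-, and 2.67%, 9.71% and 10.8% in Per2-/-, with the same library highest on each of days 7 and 10.

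**Figure D1:**
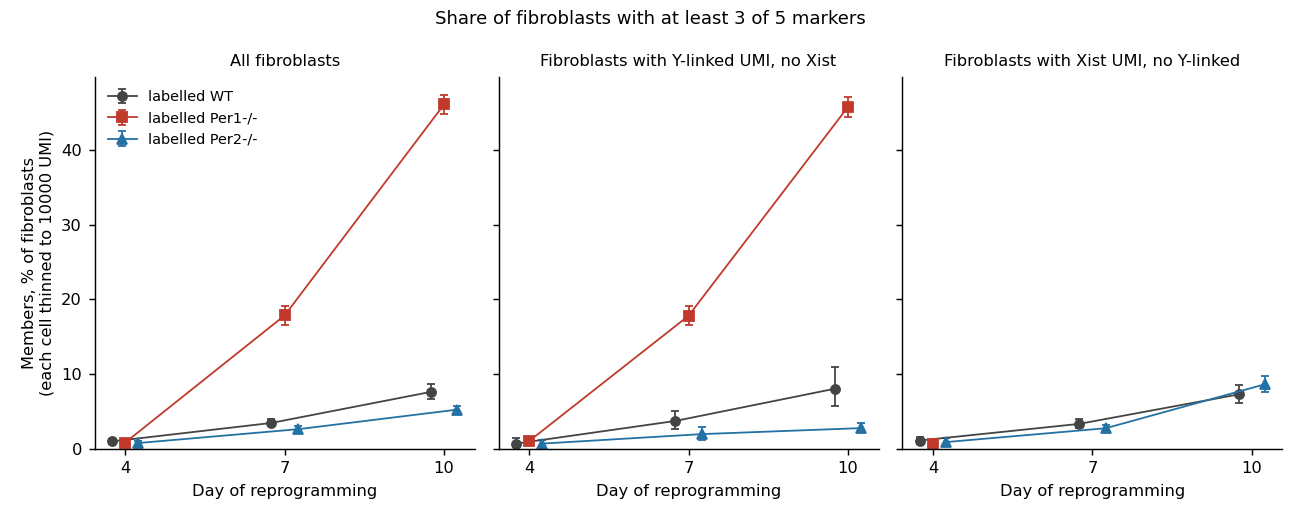
Percent of fibroblasts that were members (vertical axis) by day (horizontal axis) and genotype, after thinning each cell to 10000 UMI, for all cells and for male and female cells, with points as libraries and bars as 95% Clopper-Pearson intervals. In all cells Per1-/- reached 17.8% on day 7 and 46.1% on day 10, whereas WT and Per2-/- stayed at or under 7.62%.

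On day 4 the 3 thinned intervals overlapped, whereas without thinning that of Per2-/- (2.24% to 3.15%) lay below that of WT (3.76% to 4.93%). With 1 library per genotype these intervals say nothing of genotype. The permutation tests of shares, here and below, count the 5 markers of the rule. The rule was chosen with earlier results of these data known, so their p-values give no independent support. From day 4 to day 10 the share rose by 3.13 percentage points per day on average, with a positive slope in 3 of 3 genotypes (exact permutation test of days within genotypes, two-sided, p = 0.00926, the smallest that the possible orders allow, and 0.0278 after Benjamini-Hochberg adjustment over the 3 share tests). Set against the mean of the other genotypes, Per1-/- was 18.1 points higher, positive on 2 of 3 days, which did not pass (exact permutation of genotypes within days, two-sided, p = 0.0741, adjusted 0.111, with 0.0370 the smallest p possible). Per2-/- was 9.93 points below the mean of the others (difference −9.93, exact permutation p = 0.370, adjusted 0.370). That mean includes Per1-/- days 7 and 10, and without these the Per2-/- difference was −1.11 points. With 1 library left out it was −16.3 to −3.51 points. Leaving out 1 library left a slope of 2.51 to 3.76 points per day, each with an adjusted p of 0.0833 since fewer orders remain, and a Per1-/- difference of 7.38 (without Per1-/- day 10) to 27.2 points. Without both Per1-/- days 7 and 10, which leaves day 4 alone for Per1-/-, the Per1-/- difference was −0.0463 points and the slope 0.925 points per day (exact p = 0.0556, the smallest possible).

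The share in Per1-/- was about as high among male cells alone. Male cells were 95.2% and 93.4% of the Per1-/- fibroblasts on days 7 and 10, so nearly the same cells were counted again. Among male cells the thinned share was 0.688%, 3.72% and 8.04% in WT, 1.03%, 17.8% and 45.8% in Per1-/-, and 0.695%, 1.97% and 2.77% in Per2-/- on days 4, 7 and 10. The Per1-/- difference was 18.5 points and positive on 3 of 3 days (exact permutation p = 0.0370, the smallest possible, adjusted 0.0556). On day 4 it rested on 6, 28 and 17 male members in WT, Per1-/- and Per2-/-, with intervals that overlapped. Among female cells the share was 1.11%, 3.33% and 7.28% in WT, 0.661% in Per1-/- day 4, and 0.900%, 2.75% and 8.64% in Per2-/-. In Per2-/- day 10 the female share was thus higher than the male share. With 1 library per genotype and day, a culture, its genotype and its day cannot be told apart. Of the single markers, Ebf2 and Clec3b were detected in more fibroblasts on day 10 than on day 7 in each genotype, whereas Col6a6 went from 11.0% to 10.5% in WT, 20.3% to 41.0% in Per1-/- and 12.6% to 11.8% in Per2-/-. After thinning, Ebf2 was detected in 7.95%, 10.0% and 17.0% of WT fibroblasts, in 9.96%, 35.0% and 57.1% of Per1-/- fibroblasts and in 6.94%, 10.0% and 12.6% of Per2-/- fibroblasts. Clec3b was detected in 7.53%, 25.6% and 35.4% of WT fibroblasts, 5.45%, 35.3% and 67.0% of Per1-/- fibroblasts and 7.75%, 21.4% and 42.7% of Per2-/- fibroblasts. In thinned macrophages the share with any 1 of the 5 markers was at most 3.07%, for Clec3b in Per2-/- day 10.

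Besides the markers, the genes that led in members included Lpl, Dlk1 and Cebpa of the adipose lineage, the BMP-binding Chrdl1 and Bmper, the matrix genes Itih5, Col15a1 and Srpx2, and many genes outside these groups. CPM values were summed over the members and over the other fibroblasts of each library and compared as log2 of the ratio after adding 1 CPM to each. Of 6494 genes of at least 20 CPM, 850 (13.1%) were higher in members in all 9 libraries and 1314 (20.2%) lower, and of these 34 were higher (0.524%) and 43 lower (0.662%) by a median of at least 2-fold. The median over all these genes was −0.03. Of the 25 genes named as highest and the 15 named as lowest, every one kept its sign in all 9 libraries by the choice of the rule.

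Lpl, the lipoprotein lipase that releases fatty acids for uptake, led the list. It was 116.7, 184 and 351 CPM in WT members, 98.1, 424 and 891 CPM in Per1-/- members and 169, 156 and 319 CPM in Per2-/- members. Other fibroblasts held 22.4 to 221 CPM, and the median log2 ratio was 2.01 (range 1.24 to 2.86, 4.02-fold). Dlk1, a membrane protein of preadipocytes that restrains their differentiation, was 3457, 5797 and 5777 CPM in WT members, 3605, 5292 and 6843 CPM in Per1-/- members and 4520, 5092 and 4939 CPM in Per2-/- members. No member library overlapped the other fibroblasts, which held 1158 to 3406 CPM (median log2 ratio 1.46). Cebpa, an adipogenic transcription factor, was 18.3, 25.8 and 48.2 CPM in WT members, 15.9, 40.7 and 73.4 CPM in Per1-/- members and 21.5, 19.7 and 40.2 CPM in Per2-/- members, with a median log2 ratio of 1.33. Pparg, the master regulator of adipocyte differentiation, was 7.06 to 36.0 CPM in members against 1.88 to 12.5 CPM, with a median log2 ratio of 1.39. Macrophages also express several of these genes: Lpl was 453 to 1847 CPM there, Cebpa 33.2 to 74.2 CPM and Pparg 19.5 to 37.2 CPM, whereas Dlk1 was 22.9 to 85.0 CPM. The summed macrophage markers of members, 11.1 to 78.6 CPM, lay near those of other fibroblasts, 14.7 to 77.6 CPM.

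**Figure D2:**
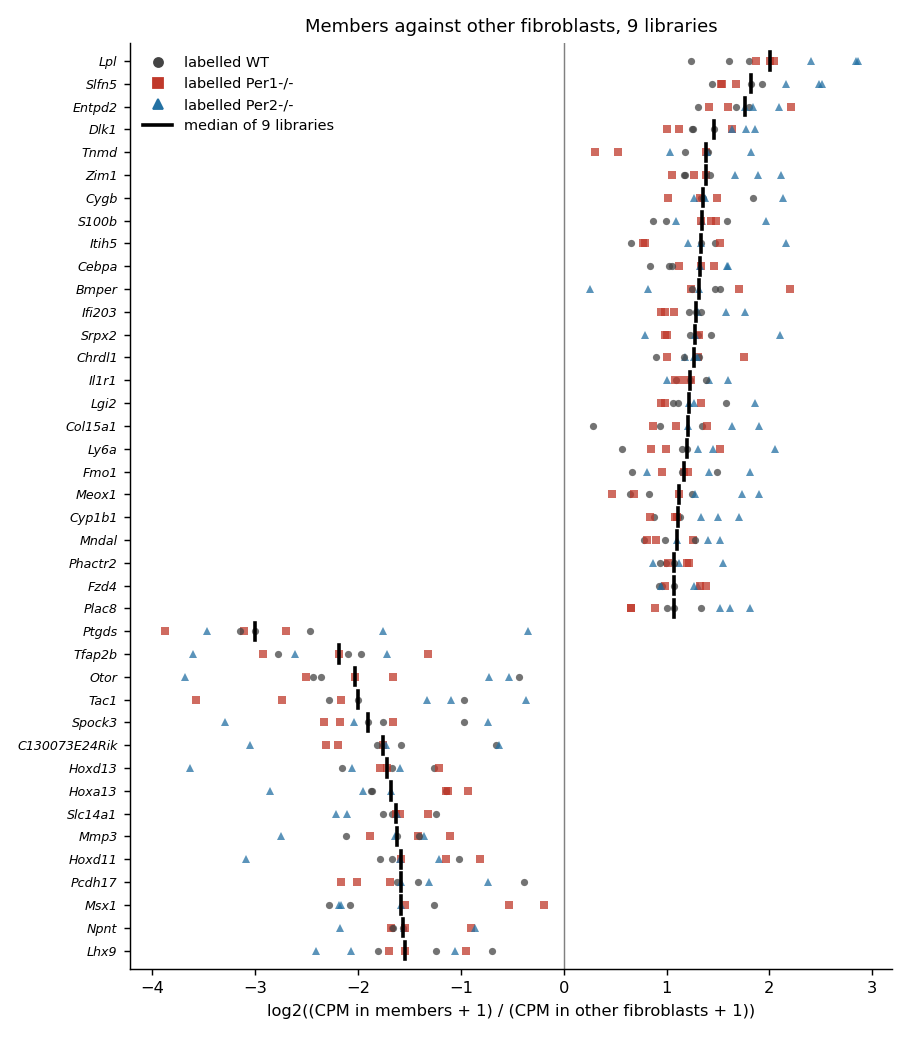
Log2 ratio of CPM between members and other fibroblasts for the 25 highest and 15 lowest genes outside the rule, 1 point per library and a bar at the median. Lpl led with a median of 2.01, and Ptgds was lowest with a median of −3.0.

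The start sites of Cebpa and Dlk1 are shown because both genes led in members and their upstream windows hold no annotated exon. The 250 bases before each start are given 5′ to 3′ on the coding strand from RefSeq (GRCm38.p6), with capitals marking the letters TATAAA.
Cebpa, chr7:35119043-35119292, plus strand: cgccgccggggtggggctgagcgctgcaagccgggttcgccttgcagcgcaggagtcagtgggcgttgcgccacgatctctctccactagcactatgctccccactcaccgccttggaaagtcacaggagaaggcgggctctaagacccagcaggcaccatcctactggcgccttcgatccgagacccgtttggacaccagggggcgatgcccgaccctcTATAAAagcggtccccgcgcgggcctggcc
Dlk1, chr12:109452573-109452822, plus strand: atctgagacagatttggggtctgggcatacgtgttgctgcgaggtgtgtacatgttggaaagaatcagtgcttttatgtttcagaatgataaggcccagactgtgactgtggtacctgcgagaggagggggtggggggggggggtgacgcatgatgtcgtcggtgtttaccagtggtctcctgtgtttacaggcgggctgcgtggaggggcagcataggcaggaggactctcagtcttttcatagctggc

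In Cebpa the TATAAA lay 30 to 25 bases before the start on the coding strand, and the Dlk1 window held none of the motifs searched. Windows of 300 bases around the start were found for 19 of the 25 highest genes, 3 of the 5 markers and 13 of the 15 lowest genes. A gene was counted if any of its windows held the motif on either strand, and some genes had more than 1 window. The shares of all windows beside these counts are therefore an unlike measure. TATAAA was in 1 of 19, 1 of 3 and 3 of 13 genes, against 13.6% of all 32851 windows. The EBF motif, TCCC and GGGA with 2 bases between them (0.904% of all windows), the C/EBP motif TTGCNNCAA (2.08%) and AGGTCA repeated after 1 base (0.0396%) were in none of these windows. GAAA repeated after 2 bases, the letters of interferon response elements, was in 3 of 19, 0 of 3 and 1 of 13 genes, against 3.44% of all windows.

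Several other leading genes act outside the cell. Chrdl1, a BMP antagonist, was 7.56, 39.8 and 53.7 CPM in WT members, 14.3, 36.6 and 67.3 CPM in Per1-/- members and 9.79, 39.7 and 47.0 CPM in Per2-/- members, against 3.60 to 20.9 CPM in other fibroblasts (median log2 ratio 1.26). Bmper, which binds BMPs, had a median log2 ratio of 1.32 and Entpd2, an ectonucleotidase that breaks down ATP, one of 1.76. Tnmd, a transmembrane glycoprotein of tendon, had one of 1.39, Itih5, a hyaluronan-binding protein, one of 1.33 and Col15a1, a basement membrane collagen, one of 1.21. Ly6a (Sca-1), a surface marker of stromal progenitors, was 150, 231 and 168 CPM in WT members, 143, 216.4 and 156 CPM in Per1-/- members and 113, 163 and 155 CPM in Per2-/- members. All 9 values lay above the 38.5 to 108 CPM of other fibroblasts, and the median log2 ratio was 1.2. The receptors Il1r1 (interleukin 1, 1.23) and Fzd4 (Wnt, 1.07), the Schlafen gene Slfn5 (1.82), the interferon-inducible genes Ifi203 (1.28) and Mndal (1.10), the oxidases Cyp1b1 (1.11) and Fmo1 (1.17), and the homeobox gene Meox1 (1.12) also led. Macrophages also held Slfn5, Ifi203 and Mndal, at 74.2 to 303, 26.1 to 217 and 37.4 to 234 CPM, where members held 14.8 to 32.9, 10.9 to 36.3 and 8.43 to 41.3 CPM. S100b (1.34), a calcium-binding protein also used as a Schwann marker, was 21.0 to 120 CPM in members, and without it the Schwann list had no gene of at least 20 CPM.

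The genes lowest in members included transcription factors of limb and head mesenchyme. Ptgds, a prostaglandin D synthase, was 0 to 12.8 CPM in members and 2.38 to 40.4 CPM in other fibroblasts, with a median log2 ratio of −3.0. Tfap2b, a transcription factor of craniofacial and limb mesenchyme, was 9.08, 8.12 and 6.56 CPM in WT members, 4.01, 0.153 and 0.514 CPM in Per1-/- members and 2.72, 8.50 and 4.56 CPM in Per2-/- members. Other fibroblasts held 17.2 to 57.1 CPM, except for 1.87 and 5.87 CPM in Per1-/- days 7 and 10, and the median log2 ratio was −2.18. In those Per1-/- libraries the gene was therefore low in fibroblasts of either kind. Msx1, a limb bud factor, behaved alike: it was 1.59 to 21.2 CPM in members (median log2 ratio −1.58) and 45.2 to 83.1 CPM in other fibroblasts, but 1.95 and 5.61 CPM in the other fibroblasts of Per1-/- days 7 and 10. Otor (−2.03), Tac1 (−2.0), Spock3 (−1.90), the urea transporter Slc14a1 (−1.63), the protease Mmp3 (−1.63) and Lhx9 (−1.54) were also low.

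The sizes of these differences are given for subsets of the cells and libraries as a description, since the genes were chosen on the same cells for 1 sign in all 9 libraries. The 25 highest and 15 lowest genes had that sign among male cells of 9 libraries (median over genes 1.35 and −2.19), female cells of 7 libraries (1.27 and −2.17), the 7 libraries without Per1-/- days 7 and 10 (1.31 and −1.70) and the 3 WT libraries (1.17 and −1.67). Of the 25 highest genes, 23 were higher at each step from 0 through 1, 2 and 3 to 4 or 5 markers, and 14 of the 15 lowest were lower at each step. Across these steps the median CPM over libraries was 25.2, 49.6, 97.4, 153 and 309 for Lpl, 931, 1933, 2885, 4588 and 5721 for Dlk1, and 2.22, 4.58, 7.71, 10.2 and 15.4 for Pparg. In the opposite direction it was 52.1, 23.5, 11.9, 5.03 and 3.89 for Tfap2b and 330, 266, 180, 146 and 102 for the smooth muscle actin Acta2. Ptgds did not follow the steps, with 9.88, 27.4, 7.91, 2.07 and 0.69 CPM. The score of Scrublet, a doublet caller, was among the highest of a library in 2.05% to 18.1% of members and 2.33% to 11.9% of other fibroblasts. Without those cells the median log2 ratio was 2.08 for Lpl, 1.51 for Dlk1 and −3.44 for Ptgds.

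**Figure D3:**
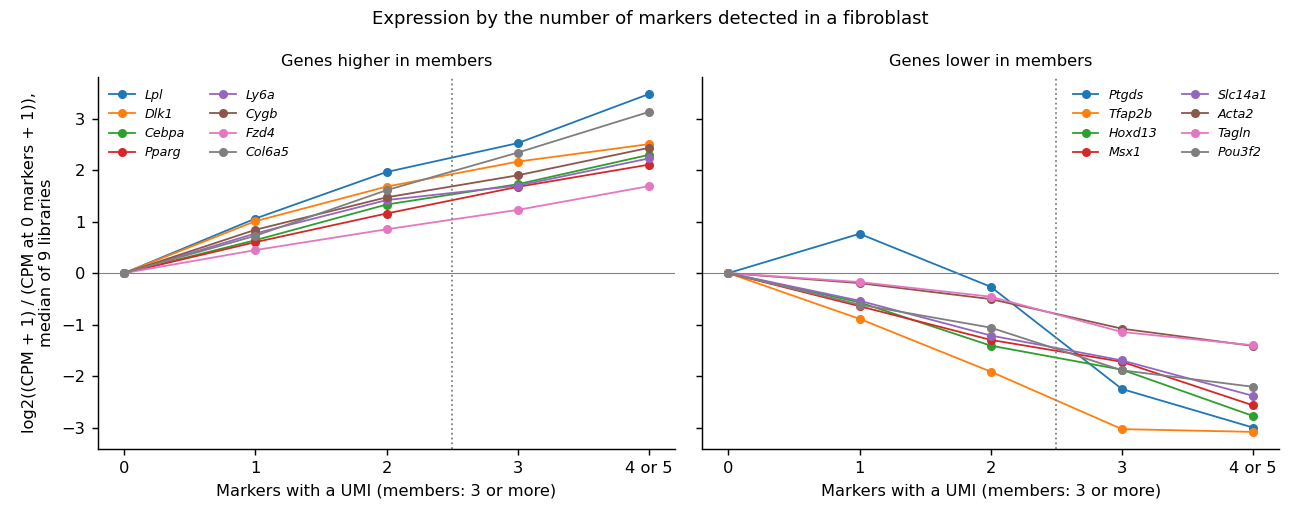
Log2 ratio of CPM to that of cells with 0 markers, after adding 1 CPM to each (vertical axis, median of 9 libraries), against the number of markers with a UMI (horizontal axis), for 8 genes higher and 8 lower in members, with a dotted line where membership starts. The curves of Lpl and Dlk1 climb with each step, and that of Tfap2b descends with each step.

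Gene lists placed the members among fibroblasts, read against the 13.1% of genes higher and 20.2% lower in all 9 libraries. Of 15 universal and adventitial fibroblast genes of at least 20 CPM, 8 were higher in members in all 9 libraries and 2 lower, with a median log2 ratio of 0.58. Besides Ly6a they were led by Mfap5, a microfibril glycoprotein (37.4 to 152 CPM against 12.3 to 96.3 CPM, 1.05), Cd34, a sialomucin of progenitors (82.3 to 158 CPM against 35.0 to 110 CPM, 0.82), and the actin-severing Gsn (0.70). Against them went Creb5 (−1.23) and the opioid precursor Penk (−0.87), and Pi16 and Dpt, the defining markers of universal fibroblasts, stood at 0.27 and 0.13. Of 15 adipose lineage genes 5 were higher and none lower, with a median of 0.23. Beside Lpl, Dlk1 and Cebpa these were Cebpd (69.0 to 152 CPM against 28.4 to 82.3 CPM, 0.91) and Pdgfra (0.31). Genes of mature fat cells did not follow: Fabp4, a fatty acid carrier, was higher in 6 of 9 libraries (0.30), and the adipocyte hormone Adipoq (0.16) and the lipid droplet protein Plin1 (0.31) were at most 14.8 and 5.31 CPM in members. Of the other EBF genes, Ebf1 was abundant at 393 to 739 CPM in members but near its level in other fibroblasts (0.20), and Ebf3 was 56.7 to 85.7 CPM against 38.1 to 60.1 CPM (0.50, higher in all 9 libraries).

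Of 8 iron and metal reductase genes of at least 20 CPM, 1 was higher and 2 lower, and the relatives of Steap4 were at −0.93 (Steap1), −0.29 (Steap2) and −0.02 (Steap3). Of 8 retinoid and alcohol genes 2 were higher and 5 lower (median −0.17), among them the retinoic acid binding proteins Crabp1 (231 to 638 CPM against 315 to 1079 CPM, −0.51) and Crabp2 (−0.56). The retinaldehyde dehydrogenase Aldh1a3, under 20 CPM, was 2.04 to 7.58 CPM in members against 0.99 to 4.03 CPM (1.07). Of the collagen VI chains, Col6a1 (0.44), Col6a2 (0.51), Col6a3 (435 to 1120.0 CPM against 336 to 641 CPM, 0.77) and Col6a5, the neighbour of Col6a6 in the family (4.42 to 17.0 CPM against 0.822 to 3.86 CPM, 1.89), were higher in all 9 libraries. With the basement membrane genes, 9 of 18 were higher and 2 lower (Col4a5 −0.97 and Col18a1 −0.51). Of 19 fibrillar collagen genes 7 were higher and 1 lower, including the 3 collagens of the rule. Of 8 small leucine-rich proteoglycans 4 were higher and none lower (median 0.39), led by Prelp (1.02) and Dcn (0.53).

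Contractile genes were lower in members. Of 15 myofibroblast genes 8 were lower in all 9 libraries and 1 higher, with a median of −0.46. Acta2 was 47.1 to 266 CPM in members against 139 to 575 CPM (−0.99), the actin-binding Tagln 54.5 to 291 CPM against 192 to 445 CPM (−1.12), and the myosin light chain Myl9 59.3 to 137 CPM against 97.4 to 175 CPM (−0.56). The matricellular gene Postn went the other way at 0.60. In the TGF-beta and BMP list 8 of 18 genes were lower and 3 higher: the ligands Tgfb2 (−1.15) and Bmp4 (−0.65) and the BMP antagonist Grem1 (−1.10) were lower, whereas the antagonists Chrdl1 (1.26) and Fst (1.06) were higher. Of 10 Wnt genes 4 were higher and 4 lower. The secreted antagonists Sfrp1 (218 to 584 CPM against 68.0 to 311 CPM, 1.04) and Sfrp2 (312 to 1395 CPM against 140 to 757 CPM, 0.96) were higher and the ligand Wnt5a (−0.69) was lower. Of 12 genes of the IGF axis 6 were higher, including Igf1 (218 to 374 CPM against 98.4 to 265 CPM, 0.92), Igf2 (0.80, with counts that stepped between the gene sets of days 7 and 10) and the IGFBP protease Pappa (0.80), and Igfbp2 was lower (−0.85).

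Immune lists were mixed. Of 6 complement genes 3 were higher and none lower, namely the C1 inhibitor Serping1 (0.98), C1s1 (0.76) and C1ra (0.51), and below 20 CPM C3 was 0.455 to 19.5 CPM against 0.24 to 9.17 CPM (1.24). Of 6 chemokines and cytokines 4 were higher (Il33 0.89, Ccl7 0.65, Kitl 0.62 and Csf1 0.51) and 2 lower (Cxcl5 −1.13 and Cxcl12 −0.57). In the TNF and NF-kB list 7 of 16 were higher and 3 lower, in the interferon list 7 of 20 were higher and none lower, with medians of 0.19 and 0.15. Of 8 glucocorticoid response genes 4 were higher and 1 lower, of 6 clock genes 1 was lower (Dbp, −0.23), and of 11 cell cycle genes 3 were higher (Mcm3, Mcm4 and Mcm6). Elastic fibre genes were split with 5 of 17 higher and 5 lower, and matrix proteases and inhibitors with 3 of 16 higher and 4 lower.

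Hox genes are expressed along the body axis in the order of their paralog number, with numbers 11 to 13 in the distal limb, the tail and the genital region. Of 12 Hox genes of at least 20 CPM, 4 were higher in members in all 9 libraries and 4 lower. To include more paralogs the minimum was lowered to 5 CPM, at which 11.0% of all 10591 genes were higher and 17.5% lower. There 1 of the 4 Hox genes with numbers 1 to 3 was higher and none lower, and 11 of the 16 with numbers 4 to 9 were higher in members in all 9 libraries and none lower, with a median log2 ratio of 0.52. Of the 5 with numbers 11 to 13 none was higher and 4 were lower, with a median of −1.59, and of the 3 with number 10, 2 were lower. Hoxc8 was 56.7 to 102 CPM in members against 26.2 to 58.4 CPM (0.88). Hoxd13 was 17.5, 14.1 and 13.1 CPM in WT members against 43.5, 46.9 and 61.7 CPM in other WT fibroblasts, 12.7, 1.13 and 2.19 CPM against 46.0, 3.93 and 9.5 CPM in Per1-/-, and 2.72, 14.9 and 28.4 CPM against 45.2, 65.1 and 87.6 CPM in Per2-/-, a median of −1.72. It was lower in members within each library, and low in either kind of cell in Per1-/- days 7 and 10. Other patterning factors went in either direction: of 23, 5 were higher, with Meox1 (1.12), Sox9 (110 to 255 CPM against 53.8 to 143 CPM, 0.98) and En1 (0.60), and 9 were lower, with Msx1, Lhx9 and Foxp2 (−1.35).

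**Figure D4:**
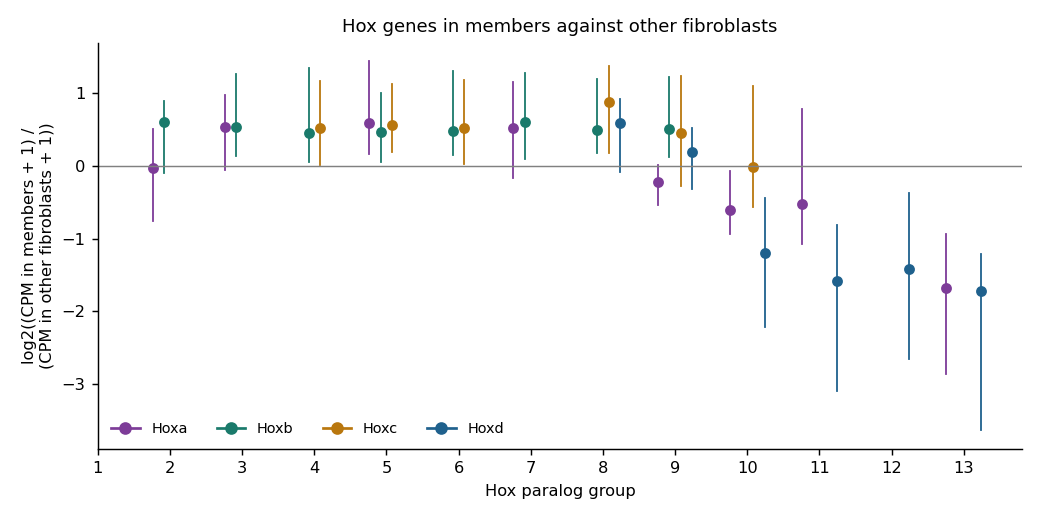
Log2 ratio of CPM between members and other fibroblasts (vertical axis) for each Hox gene of at least 5 CPM by paralog number (horizontal axis), coloured by cluster, with points as the median of 9 libraries and lines from the lowest to the highest library. Medians for numbers 4 to 9 ran from −0.22 to 0.88, and for numbers 11 to 13 from −1.72 to −0.52.

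Of the reprogramming factors, Pou3f2 was 32.6 to 166 CPM in members against 66.6 to 226 CPM in other fibroblasts, lower in all 9 libraries (−1.44), and its median over libraries was 209 CPM at 0 markers and 35.5 CPM at 4 or 5. Endogenous and lentiviral transcripts cannot be told apart in these counts. Neuron markers summed to 63.2 to 214 CPM in members against 156 to 280 CPM, and the neuronal nuclear protein Rbfox3 was under 1 CPM in all libraries. Other cell types left few transcripts in members: 0.272 to 4.79 CPM for 7 epithelial markers, 2.12 to 14.6 CPM for 8 mesothelial, 6.97 to 56.3 CPM for 10 skeletal muscle and 19.8 to 25.6 CPM for 8 endothelial markers. Chondrocyte markers summed to 129 to 318 CPM against 72.6 to 267 CPM, with the defining Acan and Matn1 under 1 CPM in members, tenocyte markers to 95.3 to 254 CPM against 65.7 to 235 CPM, and pericyte and smooth muscle markers to 57.2 to 91.6 CPM against 47.3 to 60.3 CPM, with Rgs5 under 1 CPM in members. Schwann markers, with S100b, summed to 24.4 to 142 CPM against 15.3 to 108 CPM, and astrocyte markers to 99.8 to 278 CPM against 78.4 to 243 CPM. For adipocyte markers the direction differed between libraries. In WT, Per1-/- and Per2-/- members they summed to 14.1, 18.5 and 18.5 CPM on day 4, against 31.6, 19.5 and 14.9 CPM in other fibroblasts. On day 7 this was 23.7, 126 and 10.5 CPM against 18.6, 46.2 and 8.42 CPM. On day 10 it was 41.9, 243 and 103 CPM against 195, 65.6 and 24.9 CPM.

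Genotype was then compared within the members, on UMI summed per library. Since each genotype and day had 1 library, the 3 days served as repeats of a genotype, and p-values measure the spread between these libraries. Only 6 of 14318 genes tested (0.0419%) differed between Per1-/- and WT members (edgeR quasi-likelihood test, Benjamini-Hochberg adjusted p under 0.05), 4 higher (0.0279%) and 2 lower (0.014%), whereas 1422 had an unadjusted p under 0.05 and DESeq2 called 138. Within the other fibroblasts 0 of 17647 genes passed (1288 at an unadjusted p under 0.05). Leaving out 1 library gave 0 to 140 genes: 0 without WT day 7, WT day 10 or Per2-/- day 10, 1 without Per1-/- day 7 or Per2-/- day 7, 2 without Per1-/- day 10, 3 without WT day 4, 43 without Per2-/- day 4 and 140 without Per1-/- day 4. Without both Per1-/- days 7 and 10, which leaves 1 Per1-/- library, none passed, with log2 fold changes of 1.02 for Itih5, 2.20 for Cfb, 0.83 for Tlcd2, 0.95 for Fmo1, −0.80 for Hoxb9 and −2.44 for Nts.

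Itih5 (chr2:10153571-10256529), which also led among the members, was 22.6, 13.4 and 19.6 CPM in WT members and 42.3, 45.0 and 65.3 CPM in Per1-/- members on days 4, 7 and 10, with 36.7, 27.6 and 34.0 CPM in Per2-/-. The WT and Per1-/- values did not overlap, which a choice by smallest p favours, and the log2 fold change was 1.54 (SE 0.17, edgeR adjusted p = 0.0383). Fmo1 (chr1:162829561-162866610), a flavin monooxygenase, was 7.44, 24.5 and 31.9 CPM in WT, 16.2, 47.5 and 62.3 CPM in Per1-/- and 10.1, 20.2 and 30.4 CPM in Per2-/-, a log2 fold change of 1.04 (SE 0.12, edgeR adjusted p = 0.0408). It was highest in Per1-/- on each day. Tlcd2 (chr11:75461715-75470899), a membrane lipid regulator, was 11.2, 11.8 and 11.7 CPM in WT, 18, 31.1 and 26.8 CPM in Per1-/- and 8.16, 11.9 and 10.2 CPM in Per2-/-, a log2 fold change of 1.18 (SE 0.14, edgeR adjusted p = 0.0383). Cfb (chr17:34856374-34862518), complement factor B, was 0.252, 0.552 and 4.64 CPM in WT, 0.911, 3.70 and 17.2 CPM in Per1-/- and 0, 0.457 and 2.28 CPM in Per2-/-, a log2 fold change of 2.22 (SE 0.26, edgeR adjusted p = 0.0383). On day 4 it rested on 2 UMI in WT and 10 in Per1-/-, and on day 10 on 1303 UMI in 583 of the Per1-/- members (16.2%). Macrophages held at most 1.47 CPM of Cfb. In other fibroblasts the log2 fold change was 1.69 for Itih5, 1.13 for Fmo1, 1.16 for Tlcd2 and 2.13 for Cfb but none passed.

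Hoxb9 (chr11:96271457-96276595), a thoracic Hox gene, was 65, 61.2 and 51.1 CPM in WT, 37.0, 28.7 and 17.7 CPM in Per1-/- and 63.9, 64.0 and 42.8 CPM in Per2-/-, a log2 fold change of −1.10 (SE 0.13, edgeR adjusted p = 0.0383). Per1-/- was lowest on each day. Nts (chr10:102481756-102490486), the neuropeptide neurotensin, was 5.80, 15.8 and 64.3 CPM in WT, 0.820, 2.35 and 7.47 CPM in Per1-/- and 0.816, 15.1 and 28.6 CPM in Per2-/-, a log2 fold change of −2.91 (SE 0.29, edgeR adjusted p = 0.0383). It rested on few cells, since 673 of its 971 UMI in WT day 10 came from 1 cell, and among male cells its log2 fold change was 2.73. Each of the 6 calls passed in 7 or 8 of 19 alternatives. Next was Cadm2, a cell adhesion gene, at −1.06 (edgeR adjusted p = 0.0552), which did not pass.

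**Figure D5:**
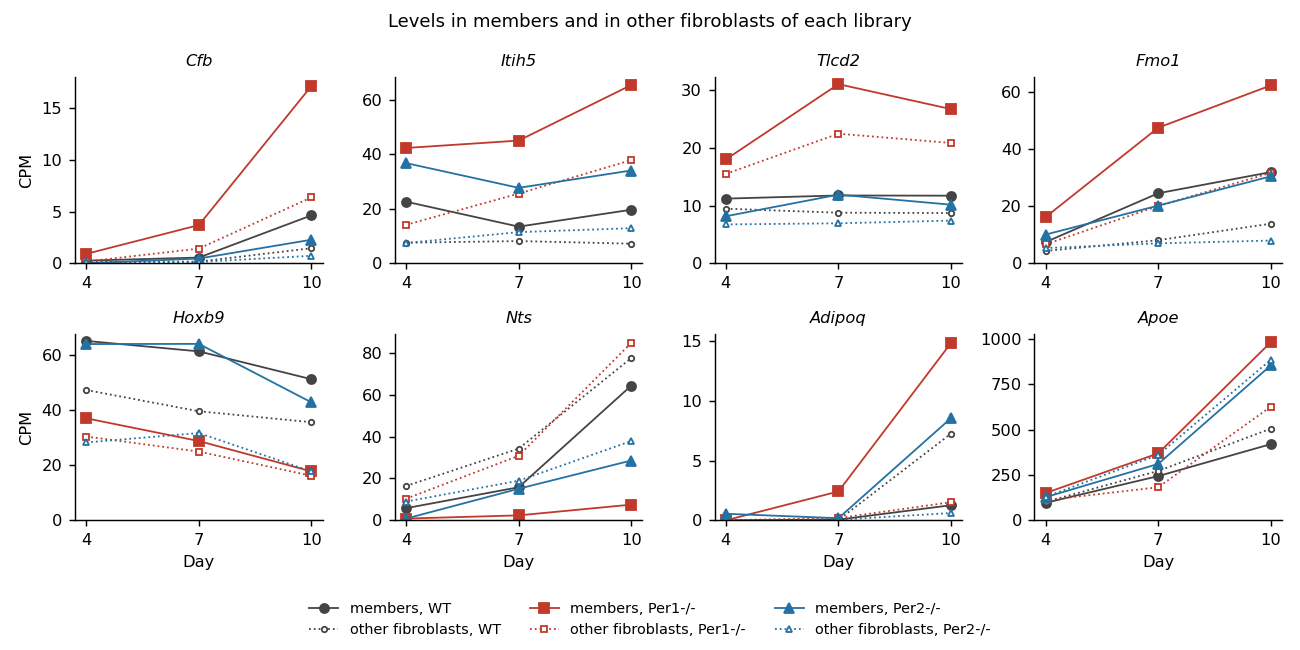
CPM (vertical axes, from 0) by day (horizontal axes) for 8 genes, 1 point per library, with filled points and solid lines for members, open points and dotted lines for other fibroblasts, and colours for genotypes. Itih5 was 42.3 to 65.3 CPM in Per1-/- members and 13.4 to 22.6 CPM in WT members.

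The lists held few calls for Per1-/- against WT, read against the 0.0419% of all genes. Of 32 adipose lineage genes tested none passed, with 25 log2 fold changes above 0 and a median of 0.41. Of 21 chemokines and cytokines none passed (16 above 0, median 0.43), of 14 complement genes Cfb passed, and of 34 Hox genes Hoxb9 passed. None of the genes passed in the other 20 lists. Between Per2-/- and WT members no gene of 14318 passed (0.0%), although 981 had an unadjusted p under 0.05 and DESeq2 called 29, and in other fibroblasts none of 17647 passed (1436 at an unadjusted p under 0.05). The smallest p was that of Tmem37, a calcium channel-related membrane protein, with 20.1, 11.4 and 12.3 CPM in Per2-/- against 4.79, 2.76 and 1.26 CPM in WT and 6.10, 3.06 and 2.69 CPM in Per1-/- (log2 fold change 2.47, SE 0.25, edgeR adjusted p = 0.0563). Tmem37 was 36.1 to 77.7 CPM in macrophages. The chaperone Hspb1 (0.78) and Hoxc10 (1.11) followed, and Trp53inp1 (−0.82), the kinase gene Stk25 (−0.59) and the cell cycle inhibitor Cdkn1a (−0.55) in the other direction, with edgeR adjusted p of 0.218 to 0.341, none passing. Of 34 cell cycle genes 33 had a log2 fold change above 0 (median 0.48) and none passed. In neither comparison with WT was the number of all tested genes above 0 counted. The numbers above 0 therefore do not show that a list rose relative to all genes.

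Between Per1-/- and Per2-/- members 4 genes differed (0.0279%, with 0.014% in either direction, 1504 at an unadjusted p under 0.05 and 94 by DESeq2). Cfb (log2 fold change 2.99) and Tlcd2 (1.32) were higher and Tmem37 (−1.97) and Hoxb9 (−1.08) lower in Per1-/- (edgeR adjusted p of 0.0238, 0.0448, 0.0491 and 0.0491). The number was 191 without Per1-/- day 4, 177 without Per2-/- day 4, 2 without any 1 of the WT libraries and 0 without any 1 of the Per1-/- or Per2-/- libraries of days 7 and 10. The Per1-/- libraries are shared by this comparison and the one with WT.

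Between days 4 and 7, genes that rose in members included Chrdl1, Pcsk5, Pi15 and Cd34, and genes that fell included Fblim1, Wnt4 and Sox11. Of 14318 genes 88 (0.615%) passed, 60 higher (0.419%) and 28 lower (0.196%) on day 7 (2388 at an unadjusted p under 0.05, 531 by DESeq2), with 163 of 17647 in other fibroblasts. The number depended on which library was left out: it was 1 without Per2-/- day 7, 2 without Per1-/- day 7, 19 without WT day 4, 25 without WT day 7, 32 without Per1-/- day 4, 45 without Per1-/- day 10, 93 without WT day 10, 135 without Per2-/- day 10 and 266 without Per2-/- day 4. Chrdl1 rose from 7.56, 14.3 and 9.79 CPM in WT, Per1-/- and Per2-/- members on day 4 to 39.8, 36.6 and 39.7 CPM on day 7 (log2 fold change 1.93, SE 0.19, edgeR adjusted p = 0.00863). Fmo1 rose by 1.51 (SE 0.14, edgeR adjusted p = 0.00863) and the proprotein convertase Pcsk5 from 7.69, 9.84 and 7.34 to 26.2, 38.7 and 38.7 CPM (2.07). The protease inhibitor Pi15 rose from 33.0, 41.3 and 40.0 to 115, 108 and 116 CPM (1.61), and Pgm5, a phosphoglucomutase-like protein of adhesions, rose by 1.10. In each of these 5 genes no day 7 library overlapped day 4. Their choice by smallest p favours this, and the share over all genes was not counted. Cttnbp2 (1.36), Fam198a (1.45), 2810433D01Rik (1.18) and the glycosyltransferase Galnt16 (1.71) completed the 10 smallest p with Apoe, the lipid carrier apolipoprotein E, which rose from 96.4, 151 and 128 to 244, 370 and 311 CPM (1.35, edgeR adjusted p = 0.0165). Apoe was 629 to 16203 CPM in macrophages, and summed macrophage markers in members were 33.4, 29.0 and 11.1 CPM on day 4 and 29.6, 67.3 and 62.8 CPM on day 7. Their part in the rise of Apoe was not tested.

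The genes that fell by day 7 were led by Fblim1, a filamin-binding adhesion protein, from 28.7, 25.8 and 34.5 to 11.9, 10.9 and 11.1 CPM (log2 fold change −1.34, edgeR adjusted p = 0.00863), and the ligand Wnt4 from 23.1, 16.8 and 19.3 to 6.02, 2.20 and 2.99 CPM (−2.48). The noncoding RNA Miat fell from 85.5, 42.1 and 27.2 to 13.3, 7.98 and 11.9 CPM (−2.15), and the neural transcription factor Sox11 from 173, 130 and 139 to 80.7, 66.0 and 88.0 CPM (−0.88). The receptor Notch3 (−0.89), the actin regulators Enah (−0.63) and Vasp (−0.59), the membrane proteins Shisa2 (−1.37) and Tspan2 (−1.25) and the thymidylate synthase Tyms (−0.69) fell as well.

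By lists, 4 of 22 universal and adventitial genes rose by day 7 and none fell (19 above 0, median 0.62, against 0.00 over all genes). They were Cd34 (84.8, 82.3 and 92.7 to 139, 141 and 129 CPM, 0.70), Dpt (1.17), the complement regulator Cd55 (0.80) and Penk (68.3, 80.9 and 60.6 to 153, 188 and 199 CPM, 1.40). Of 12 small leucine-rich proteoglycans Dcn rose, from 1274, 1710 and 1025 to 2701, 2680 and 2476 CPM (1.03), and 11 were above 0. Of 32 adipose lineage genes Apoe and Car3 rose and 28 were above 0 (median 0.43). Car3, a carbonic anhydrase abundant in fat, was 0, 0.0911 and 0 CPM on day 4, which was 1 UMI in all, and 0.828, 14.2 and 2.99 CPM on day 7, so no fold change is given. Few cells carried most of its UMI in the Per1-/- members of day 7, as given below. Single genes of other lists rose, namely the retinaldehyde dehydrogenase Aldh1a1 (1.66), the cytokine Il33 (1.41), the clock gene Per3 (0.78), the Wnt modulators Sfrp2 (0.92) and Rspo3 (0.75), the proteases Adamts5 (0.58) and Ctsk (0.54), Hoxd9 (1.32) and Gata6 (0.78), and Crabp1 fell (−0.75). Of 34 cell cycle genes all had a log2 fold change below 0 (median −1.03) and Tyms alone passed.

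Between days 7 and 10, 222 genes passed (1.55%), 186 higher (1.3%) and 36 lower (0.251%), with 1430 at an unadjusted p under 0.05 and 315 by DESeq2, and 229 of 17647 in other fibroblasts. The file headers show that the day 10 matrices were made with another Cell Ranger version and gene set than those of days 4 and 7, so annotation and day cannot be told apart. Of the 222 genes 85 (38.3%) changed at least 2-fold the same way in macrophages, against 130 genes (0.908%) of all tested, and 92 of the 222 were under 5 CPM in macrophages and could not be read this way. The 10 smallest p on the higher side were Timm23, Gng10, Hgs, Mrpl53, 1500011B03Rik, Rab4b, Fdx1l, Cpne1, Tomm6 and Ube2v1. Timm23, a mitochondrial import subunit, went from 5.91, 5.35 and 6.95 to 91.6, 95.6 and 107 CPM (log2 fold change 4.01). On the lower side were Ptp4a1, Rps6ka4, Nxf1, Coro1b, Taf6l, Fam220a, 4933427D14Rik, Rnf149, Chtf8 and Srf. Ptp4a1, a phosphatase, went from 77.8, 80.1 and 78.0 to 1.19, 1.01 and 1.10 CPM (−6.20), and other fibroblasts gave −6.29. Without the 85 genes, 137 were left, 112 higher and 25 lower. These 137 include the 92 that could not be read in macrophages. Leaving out a library of day 7 or 10 gave 125 (Per2-/- day 7) to 173 genes (WT day 10), with 131 without WT day 7, 133 without Per1-/- day 10, 137 without Per1-/- day 7 and 140 without Per2-/- day 10.

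Among the listed genes, 3 adipose genes and Cfb rose from day 7 to day 10. Igf2 (log2 fold change 4.07) passed with the same step in macrophages, and Hoxd4 (5.72), under 5 CPM in macrophages, passed too. In macrophages Pcna, Srf and Anxa3 had log2 ratios of the same sign as in members (0.62, −0.78 and −0.29). Apoe did not step in macrophages, whereas Cfb, Car3, Adipoq, Rbp4, Opcml, Rspo1, Gata6 and Lrrc15 were under 5 CPM there and could not be read this way. Cfb rose from 0.552, 3.70 and 0.457 CPM in WT, Per1-/- and Per2-/- members to 4.64, 17.2 and 2.28 CPM (log2 fold change 2.43, SE 0.23, edgeR adjusted p = 0.000498). Car3 rose to 12.9, 60.2 and 39.3 CPM (3.0, edgeR adjusted p = 0.000908), Apoe to 420, 983 and 855 CPM (1.22, edgeR adjusted p = 0.00337), and Adipoq from 0.0552, 2.41 and 0.176 to 1.26, 14.8 and 8.54 CPM (3.55, edgeR adjusted p = 0.0173). Of 32 adipose lineage genes these 3 passed and 25 were above 0 (median 0.56), with the number of all tested genes above 0 not counted. Adipoq had a UMI in 257 of the 8063 members, 202 of them in Per1-/- day 10 (5.63% against 1.52% of other fibroblasts), whereas in WT day 10 it was detected in 2.16% of members and 2.95% of other fibroblasts. In Per1-/- day 10 53.2% of its 1125 UMI came from 5 cells. The retinol carrier Rbp4 (1.95), the adhesion gene Opcml (0.87), the Wnt agonist Rspo1 (1.19), Gata6 (0.67) and the replication clamp Pcna (0.72) rose, and the annexin Anxa3 (29.7, 24.1 and 32.1 to 17.4, 13.3 and 16.7 CPM, −0.87) and the matrix gene Lrrc15 (−1.53) fell. Srf, the transcription factor of actin genes, fell from 15.8, 13.1 and 13.8 to 5.10, 5.36 and 5.96 CPM (−1.38, edgeR adjusted p = 0.00064).

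The last question was whether genotype or day acted on members otherwise than on other fibroblasts, tested as an interaction in 1 fit of both sums of each library. The Per1-/- against WT difference was larger or smaller in members for 16 of 16824 genes (0.0951%, of which 0.0535% larger and 0.0416% smaller, with 1312 at an unadjusted p under 0.05 and 50 by DESeq2), the Per2-/- against WT difference for 4 (0.0238%, of which 0.0178% larger and 0.00594% smaller, with 936 and 20), and the changes from day 4 to 7 and from day 7 to 10 for 1 each (0.00594%, with 1372 and 676 at an unadjusted p under 0.05, and 40 and 3 by DESeq2). Without Per1-/- days 7 and 10, which leaves 1 Per1-/- library, 0, 9, 5 and 0 genes passed. Leaving out 1 library gave 0 to 4, 0 to 4 and 0 to 3 genes for the last 3 of these. For Per1-/- against WT it gave 0 without WT day 10 or Per1-/- day 10, 2 without Per2-/- day 4, 6 without WT day 7, 8 without Per1-/- day 7, 39 without Per2-/- day 10, 40 without WT day 4 and 99 without Per1-/- day 4.

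Cav1, the coat protein of caveolae, was 78.0, 67.1 and 66.3 CPM in members on day 4 and 123, 82.0 and 81.5 CPM on day 7 (WT, Per1-/- and Per2-/-), and 139, 125 and 146 against 153, 89.0 and 114 CPM in other fibroblasts. Its log2 fold change from day 4 to day 7 was 0.45 in members and −0.27 in other fibroblasts, neither passing, and the difference of 0.71 (SE 0.05) did pass (edgeR adjusted p = 0.00491). It was called in 13 of 16 alternatives. Sfrp1 went from 267, 584 and 254 CPM on day 7 to 371, 508 and 247 CPM on day 10 in members and from 146, 311 and 123 to 139, 181 and 68.0 CPM in other fibroblasts, a difference of 0.68 (SE 0.06, edgeR adjusted p = 0.0332). It was called in 7 of 16 alternatives and lost without Per1-/- day 4, WT day 7, Per1-/- day 7, Per2-/- day 7 or Per1-/- day 10. Igf1 in Per2-/- members was 263, 374 and 333 CPM against 218, 224 and 302 CPM in WT, whereas in other fibroblasts it was 98.4, 179 and 172 against 103, 164 and 231 CPM, a difference of 0.49 (SE 0.06, edgeR adjusted p = 0.0432). It was called in 4 of 16 alternatives and lost whichever of the 9 libraries was left out. Igf1 was 516 to 733 CPM in macrophages.

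Of 32 adipose lineage genes tested, 4 passed with a higher Per1-/- against WT log2 fold change in members than in other fibroblasts (against 0.0535% of all genes). They were Retn, Adipoq, Car3 and Apoe, and none passed with a lower one. Car3 was 60.2 CPM in Per1-/- day 10 members against 12.9 CPM in WT, and 15.9 against 26.9 CPM in other fibroblasts (difference 2.81, SE 0.32, edgeR adjusted p = 0.0232), with 50.5% of its UMI in those Per1-/- members and 85.1% in the WT members from 5 cells. Among male cells (no female fibroblast was found in Per1-/- days 7 and 10) the difference of Car3 was −0.57, that of Adipoq 2.13, that of Retn 2.85 and that of Apoe 0.33, and none of them passed. Cells with at least 2 of Adipoq, Retn, Plin1 and Cidec were 52 of 3588 members and 9 of 2442 other fibroblasts in Per1-/- day 10, and 5 of 509 and 83 of 4410 in WT day 10. Adipoq was 14.8 against 1.26 CPM in members and 1.52 against 7.24 CPM in other fibroblasts on that day (5.84, SE 0.63, edgeR adjusted p = 0.0228), and its difference was −0.95 without Per1-/- days 7 and 10. Retn, the adipocyte hormone resistin, gave 7.50 (SE 0.51, edgeR adjusted p = 0.00158), yet 409 of its 587 UMI in Per1-/- day 10 and 133 of its 136 UMI in Per1-/- day 7 came from 1 cell each. Apoe was 151, 370 and 983 CPM in Per1-/- members against 96.4, 244 and 420 CPM in WT, and 111, 182 and 627 against 102, 273 and 506 CPM in other fibroblasts (0.90, SE 0.11, edgeR adjusted p = 0.0312). In the macrophages of Per1-/- days 7 and 10 Apoe was 2701 and 629 CPM, against 4604 and 3645 CPM in WT, so members of Per1-/- day 10 held more of it than the macrophages of that library. Dkk2, a Wnt antagonist, went the other way in level: it was 74.3 and 88.0 CPM in Per1-/- members of days 7 and 10 against 177 and 174 CPM in WT, and 65.8 and 73.6 against 313 and 400 CPM in other fibroblasts, so that Per1-/- was lower by less in members (difference 1.04, SE 0.14, edgeR adjusted p = 0.0326).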

How the data were processed

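Single-cell RNA-seq (10x Genomics 3′ v3.1) was performed on 9 libraries, 1 for each of 3 genotypes on 3 days. The deposited files held raw UMI counts per gene and barcode, which the authors made with Cell Ranger on mm10. The labels name Cell Ranger 7.1, whereas the file headers name cellranger 4.0.0 in 6 matrices (days 4 and 7, 31053 genes) and 6.0.0 in 3 (day 10, 32285 genes). The 30406 gene IDs that both gene sets share were used, of which 597 had different symbols, so that the earlier symbol was kept.

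Members, gene lists and marker lists were chosen with earlier results of these data known. Counts were summed per library over members, other fibroblasts and macrophages. Genotype and day were fitted together with edgeR 4.0.16 (quasi-likelihood test, TMM scaling, filter on low counts) in R 4.3.3, on all genes, with Benjamini-Hochberg adjustment and a threshold of 0.05. Differences from other fibroblasts were fitted on both sums of each library with the library as a block. The steps were tested on simulated data. Levels were compared as log2 ratios with a pseudocount of 1 CPM. Shares were tested by exact permutation (scipy 1.17.1) after thinning to 10000 UMI. Named genes were the 25 highest and 15 lowest median ratios with 1 sign in 9 libraries and at least 20 CPM, and per contrast and direction the 10 smallest p among calls, or the 3 smallest where fewer than 3 were called, besides genes of the lists. From the 25 highest and 15 lowest, mitochondrial and ribosomal protein genes, Xist, Tsix, Y-linked genes and the 5 markers were left out. Other genes of the X chromosome stayed in. In the genotype and day tests only the 5 markers were not read as calls.

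Doublets were not removed. Scrublet (scanpy 1.11.5) scores were used to leave out the highest scores of each library, at a rate of 0.8% per 1000 barcodes, as an alternative, since its automatic threshold marked 0 to 1026 cells per library. Any 2 libraries shared at most 365 barcodes and at most 1 member barcode. Alternatives were DESeq2 1.42.0, other filters, scalings, marker numbers and cell sets, and each library left out. Leaving out Per1-/- days 7 and 10, and genes that stepped in macrophages on day 10, was chosen after seeing the data. Ccn1, Mx1 and Mx2 had no matching symbol. Some items are not reported here.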

Additional observations from a re-analysis of the deposited data

Results flagged for a closer look

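For 22 results the effect of genotype or day in members differed from that in other fibroblasts by a test of the difference itself, the interaction term (edgeR quasi-likelihood test, Benjamini-Hochberg adjusted p of 0.00158 to 0.0461). Over the alternatives, these 22 differences kept the call in 168 of 350 values, lost it in 178 and changed sign in 4. Values are the log2 fold change in members minus that in other fibroblasts. Without Per1-/- days 7 and 10 a single Per1-/- library is left and no gene passed for Per1-/- against WT. The differences were then 0.55 for Apoe, 0.66 for Dkk2, 0.42 for Cst3 and −0.95 for Adipoq. Car3 was nearly absent from the members of day 4, so no difference is given for it.

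For Per1-/- against WT, the difference was above 0 for the secreted and metabolic genes Retn (7.50), Adipoq (5.84), Car3 (2.81), Apoe (0.90) and Cst3 (0.43), for the receptors Vipr2 (1.54) and Ramp2 (0.55), for the Wnt antagonist Dkk2 (1.04) and for Sncaip (0.75). In Retn, Adipoq and Car3 few cells carried most UMI: 5 cells gave 90.8%, 53.2% and 50.5% of those in the members of Per1-/- day 10, and for Car3 91.8% of the 466 UMI in Per1-/- day 7 and 85.1% in WT day 10. Among male cells the difference of Car3 was −0.57, that of Adipoq 2.13 and that of Retn 2.85. Apoe and the protease inhibitor Cst3 are abundant in macrophages, at 629 to 16203 and 1380 to 2356 CPM. The difference was below 0 for the neuropeptide Nts (−2.96), the fetal myosin Myh8 (−5.72), the neuronal genes Ina (−1.23), Syt1 (−1.12) and Csmd3 (−1.28), the transcription factor Myrf (−1.92) and the ephrin Efnb2 (−0.43). Among male cells that of Nts was 2.58 and that of Myh8 0.18, the opposite direction. In Nts, 95.6% of the UMI in the members of WT day 10 came from 5 cells.

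For Per2-/- against WT, the difference was 5.91 for Adipoq, 4.80 for the chemokine Cxcl13, 0.49 for the growth factor Igf1 and −0.50 for the cytoskeletal gene Gas2. In the members of Per2-/- day 10, 116 of the 117 Cxcl13 UMI came from 1 cell and 79.5% of the 195 Adipoq UMI from 5 cells. Among male cells the differences of Adipoq and Cxcl13 were 0.20 and 0.32. From day 4 to day 7 it was 0.71 for Cav1, and from day 7 to day 10 it was 0.68 for Sfrp1.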

How the results depend on the processing

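The share of members kept its direction under most settings but not its size, and counts of genes moved with many of them. The slope of 3.13 points per day was 1.69 after thinning to 5000 UMI, 5.15 with at least 2 and 1.44 with at least 4 markers. The Per1-/- difference of 18.1 points was then 10.4, 24.4 and 8.90. The leading genes were chosen for 1 sign on these same cells, so their kept direction adds no support. Without Per1-/- days 7 and 10 the share difference of Per1-/- was −0.0463 points and the slope 0.925 points per day, and with 1 library left out the slope was 2.51 to 3.76. For Per1-/- against WT, 6 genes became 138 with DESeq2, 130 without the filter on low counts, 0 with at least 2 and 41 with at least 4 markers, 18 without the highest Scrublet scores, 1 among male cells, 0 with genotype as the only factor, 0 on days 4 and 7 only, 0 without Per1-/- days 7 and 10 and 0 to 140 with 1 library left out. For Per2-/- against WT, 0 became 29 with DESeq2, 8 without the filter, 3 with at least 2 and 1 with at least 4 markers, 1 without the highest scores, 3 without Per1-/- days 7 and 10, and 0 to 3. For Per1-/- against Per2-/-, 4 became 94, 80, 0 and 21 in the first 4 of these settings, 1 among male cells, 0 with 1 factor, on days 4 and 7 only or without Per1-/- days 7 and 10, and 0 to 191. For day 7 against day 4, 88 became 531, 426, 163 and 22, then 29 among male cells, 22 with 1 factor, 24 without Per1-/- days 7 and 10, and 1 to 266. For day 10 against day 7, 222 became 136 among male cells, 137 without genes that stepped in macrophages, and 125 to 289. Of these 137, 92 were under 5 CPM in macrophages and could not be read for a step. For differences from other fibroblasts, Per1-/- against WT gave 50 with DESeq2, 45 without the filter, 7 without the highest scores, 3 against cells with 0 markers, 0 without Per1-/- days 7 and 10, and 0 to 99. Per2-/- against WT gave 20, 12, 8, 44 among male cells, 1 against cells with 0 markers, 9 without Per1-/- days 7 and 10, and 0 to 4. Day 7 against day 4 gave 40, 11, 2, 3 among male cells, 5 without Per1-/- days 7 and 10, and 0 to 4. Day 10 against day 7 gave 3, 2, 0, 3 among male cells, 0 against cells with 0 markers, 0 without Per1-/- days 7 and 10, and 0 to 3. The median of the leading genes, 1.28, was 1.82 against cells with 0 markers. Among male cells Nts was 2.73 for Per1-/- against WT and 2.58 as a difference from other fibroblasts, and the differences of Car3 and Myh8 were −0.57 and 0.18. Without Per1-/- days 7 and 10 that of Adipoq was −0.95. The causes were not tested, except that fewer libraries or cells enter some fits. Of the values of single genes in the genotype and day tests, 818 kept direction and side of the threshold, 233 lost the call, 29 gained it and 1 reversed. Of those of differences from other fibroblasts, 337 kept both, 178 lost the call, 23 gained it and 4 reversed. No paired analysis was possible because the labels give no replicate number that pairs cultures, although day was a term in the genotype fits and the library was a block between members and other fibroblasts. Day 4 sums rested on 136 to 259 members per library.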
